A study of Mus musculus with 12 samples.

Results

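The collagen gene family of the mouse seminal vesicle was taken as all genes whose single symbol on the array is Col, a number, the letter a and a number. This rule used no measured value and gave 42 genes of 30142 named ones, each with 1 probe set. The samples were seminal vesicles of male C57BL/6 mice, collected at week 10, and each group held 3 arrays. Pups of WT_DES were injected subcutaneously from day 1, the day of birth, to day 5 with a daily dose of 2 µg of the synthetic estrogen diethylstilbestrol (DES) in corn oil. Pups of WT_vehicle, the other group of wild type (WT) mice, received the same volume of corn oil. The groups aERKO_DES and aERKO_vehicle were treated likewise and were of the genotype labelled aERKO, the usual name of mice without estrogen receptor alpha. The labels do not describe the aERKO allele, nor whether each array of a group is another animal, so the p-values measure only the spread between the arrays of a group, and this spread may be technical. The comparisons ask which collagen genes differed in the adult gland after neonatal DES, and whether that response was the same in both genotypes.

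Collagens are secreted or membrane proteins whose chains wind into helical trimers, either of identical chains or of products of several genes. Fibrillar collagens bear the tension of connective tissue, type IV collagens form the sheet-like network of basement membranes, type VI collagens form beaded filaments around cells, and transmembrane collagens span the surface of the cell that makes them. The seminal vesicle has a secretory epithelium on a basement membrane, a lamina propria with fibroblasts, and a thick coat of smooth muscle, all of which are known to make collagens. Chain genes that share a trimer often lie next to each other in the genome.

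Levels are log2 values normalized between arrays by robust multi-array averaging (RMA), and a difference of 1 on this scale is a 2-fold change. Array medians lay between 5.95 and 6.14, and 4 hybridization controls and 23 background controls gave checks of scaling. Esr1, the targeted gene, lay between 7.55 and 7.80 in the WT arrays and between 6.81 and 7.09 in the aERKO arrays, with no overlap between genotypes. Of the 42 collagen genes, 41 passed the filter on dim genes, which required a value above the array's median on at least 3 of the 12 arrays. Col10a1, the collagen of hypertrophic cartilage, did not pass, with values from 5.13 to 5.87. Col8a1 passed through 4 arrays, 2 in WT_DES, 1 in aERKO_vehicle and 1 in aERKO_DES. It stayed below the array median in WT_vehicle, and without the WT_DES arrays it would not have passed. Differences were tested with limma over 20130 genes, and a gene was called when its Benjamini-Hochberg adjusted p was below 0.05.

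RefSeq promoter windows of build GRCm38.p6, each of 250 bases before and 50 after a gene's start, were given for 33 of the 42 genes, in 36 windows. The bases before the start are printed for Col3a1 and Col1a2, the fibrillar genes with the largest rises after DES, and for Col4a5 and Col4a6, a head-to-head pair whose levels moved apart. The segment between the annotated starts of Col4a2 and Col4a1, a head-to-head pair that rose together, is printed as well. Capitals mark the TATA box TATAAA, the CCAAT box and the GC box GGGCGG. Each was searched on both strands, and the GC box of Col4a6 is on the opposite strand and so reads CCGCCC.
Col3a1, chr1:45311288-45311537, plus strand: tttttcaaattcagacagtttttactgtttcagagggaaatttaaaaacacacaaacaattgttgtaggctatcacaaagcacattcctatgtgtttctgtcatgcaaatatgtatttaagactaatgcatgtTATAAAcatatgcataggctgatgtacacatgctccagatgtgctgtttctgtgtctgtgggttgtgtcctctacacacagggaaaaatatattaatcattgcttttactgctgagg
Col1a2, chr6:4505368-4505617, plus strand: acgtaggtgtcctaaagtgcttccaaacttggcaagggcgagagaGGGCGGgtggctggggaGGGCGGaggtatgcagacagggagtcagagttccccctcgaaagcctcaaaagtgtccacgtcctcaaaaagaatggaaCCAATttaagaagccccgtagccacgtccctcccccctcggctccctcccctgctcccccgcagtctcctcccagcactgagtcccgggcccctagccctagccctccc
Col4a5, chrX:141475169-141475418, plus strand: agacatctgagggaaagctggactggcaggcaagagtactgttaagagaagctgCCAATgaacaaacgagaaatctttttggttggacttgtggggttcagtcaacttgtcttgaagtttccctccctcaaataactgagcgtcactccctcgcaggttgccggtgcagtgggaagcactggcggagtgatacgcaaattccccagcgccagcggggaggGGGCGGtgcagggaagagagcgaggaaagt
Col4a6, chrX:141474077-141474326, minus strand: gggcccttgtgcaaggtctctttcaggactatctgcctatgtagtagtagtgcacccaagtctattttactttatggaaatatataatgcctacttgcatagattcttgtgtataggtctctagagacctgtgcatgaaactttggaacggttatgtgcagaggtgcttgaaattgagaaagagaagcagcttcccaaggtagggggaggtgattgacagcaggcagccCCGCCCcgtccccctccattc
Col4a1 and Col4a2, chr8:11312805-11312826, plus strand: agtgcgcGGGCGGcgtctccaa
The starts of Col4a1 (minus strand) and Col4a2 (plus strand) lie 21 bases apart, and the 22-base segment between them holds 1 GC box. Unlike the other sequences printed, this segment lies after both annotated starts, where the genes overlap. The starts of Col4a5 and Col4a6 lie 1343 bases apart on opposite strands. Among the collagen windows, TATAAA was present in 5 of 36, against 13.6% of all 32851 windows. CCAAT was present in 11 of 36, against 37.4% of all windows. The GC box GGGCGG was present in 21 of 36 collagen windows, against 35.7% of all windows. TGACTCA, the AP-1 site, was present in 1 collagen window, that of Col6a1, against 5.2% of all windows. The full palindromic estrogen response element was in 0 of the 36 and in 0.07% of all windows. These are matches of letters in short windows and say nothing of which factors bound.

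RNA of the main interstitial collagens read higher in the adult WT gland after neonatal DES, and collagen protein was not measured. Col3a1, Col14a1, Col1a2 and Col1a1 rose 2.53-fold to 3.52-fold, and Col5a2, the type VI chains Col6a1, Col6a2 and Col6a3, the type IV chains Col4a1 and Col4a2, Col12a1, Col15a1 and Col17a1 rose 1.32-fold to 1.77-fold. Col4a6 fell 1.74-fold, the largest decrease in the family. In all, limma called 14 of the 41 tested genes higher and 11 lower, where 20.7% of all tested genes were called higher and 23.3% lower. The family's median difference was -0.11, beside -0.05 for all genes tested, so the median collagen gene did not lie above the median gene. In the fibrillar, type IV, beaded filament, transmembrane and FACIT classes alike, some chains were called higher and others lower, as the plot of responses shows.

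**Figure D1:**
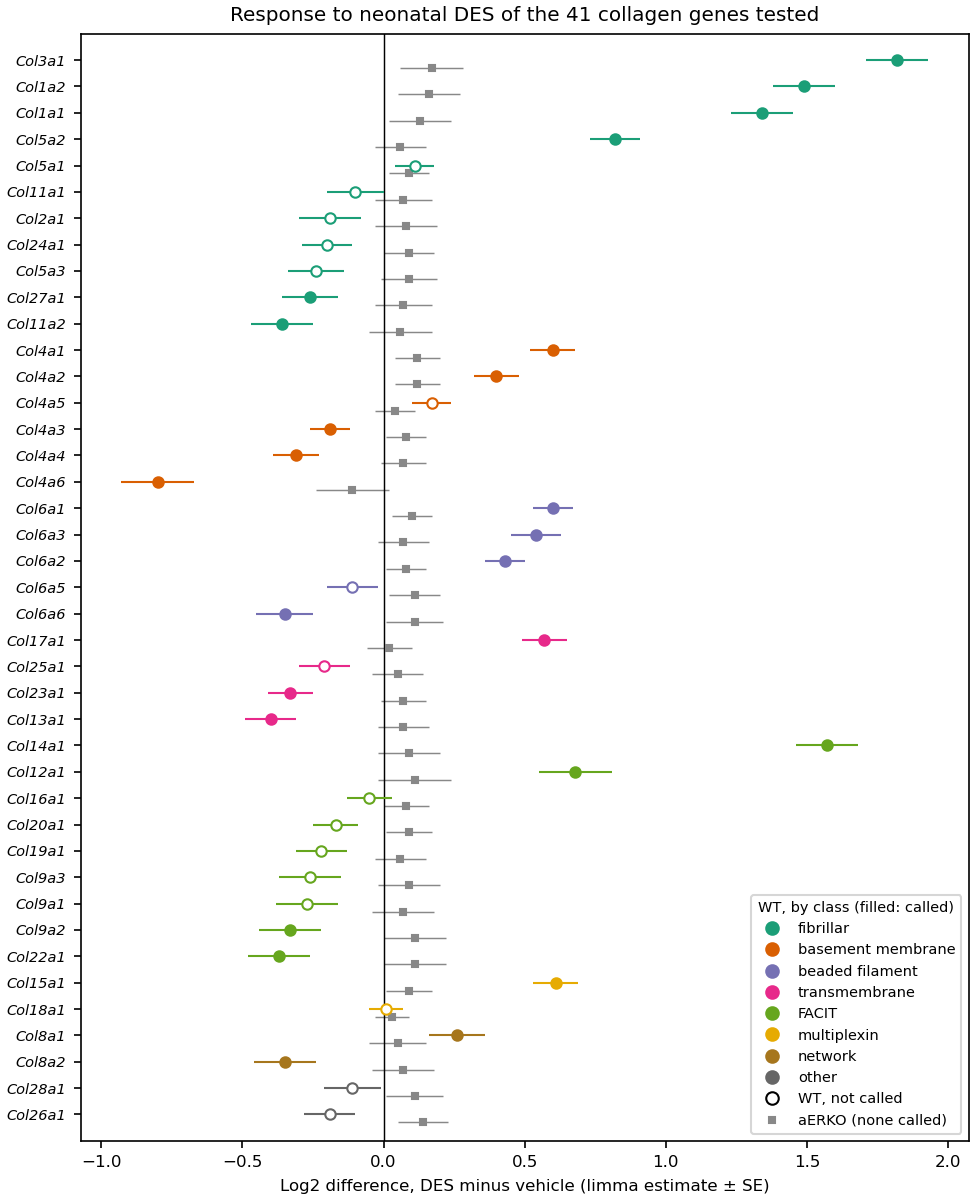
Log2 difference between DES and vehicle for each of the 41 collagen genes tested, with limma's SE as bars, ordered by class. Circles are WT, filled where called, and grey squares are aERKO. In WT the differences run from -0.80 (Col4a6) to 1.82 (Col3a1), and in aERKO from -0.11 to 0.17.

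The calls of the small decreases, and the direction of 7 of them, depended on how the arrays were scaled. The hybridization controls read 11.38 in WT_DES and 11.74 in WT_vehicle, a difference of -0.36, and the background controls differed by -0.44. With the arrays shifted to equal hybridization controls, the difference of the median gene went from -0.05 to 0.31. Then 16 collagen genes were called higher and 1 lower, beside 41.5% and 1.74% of all genes. With the arrays shifted to equal medians, 13 were higher and 19 lower, beside 16.9% and 35.4% of all genes. Of the 14 genes called higher, 14 were still called with the hybridization controls and 13 with equal medians. Of the 11 genes called lower, Col4a6 alone kept its call with the hybridization controls, 7 turned positive, and Col11a2, Col13a1 and Col22a1 stayed negative at -0.01, -0.04 and -0.01. The deposited values, those of Col4a6 included, are relative to the other genes of an array. What lies behind the dependence on scaling was not tested. Measured above the background controls, Col4a6 went from 2.999 in WT_vehicle to 2.639 in WT_DES. None of the other genes called lower was lower by that measure, as with Col13a1 (2.437 to 2.472) and Col4a3 (1.895 to 2.139). A gene said here to have fallen did so in the deposited values. In bulk tissue, fewer cells of a type and less RNA per cell cannot be told apart.

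**Figure D2:**
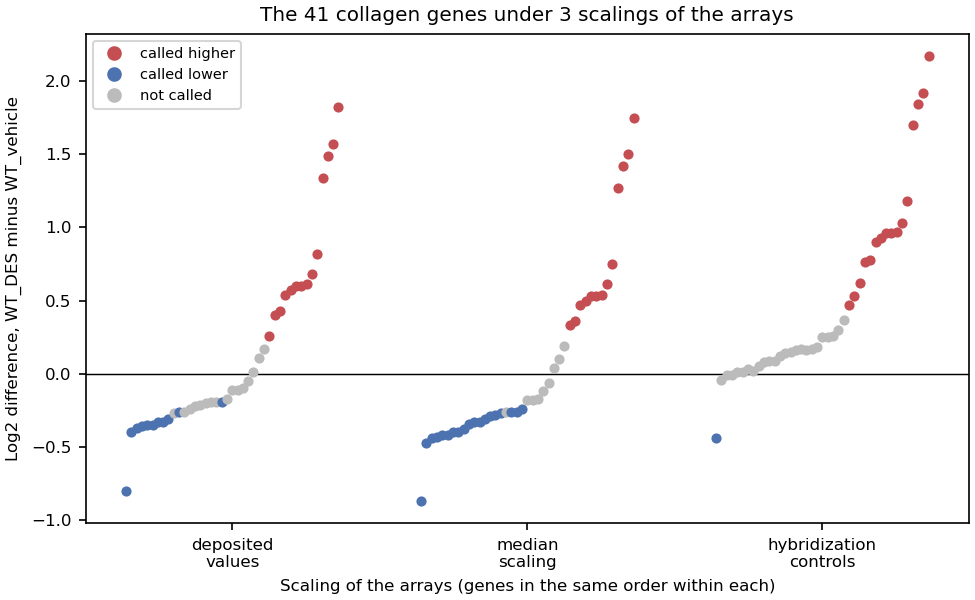
Log2 difference between WT_DES and WT_vehicle for the 41 collagen genes under 3 scalings of the arrays, with the genes in the same order each time and coloured by limma's call. The upper end is called higher under each scaling, whereas 11, 19 and 1 genes are called lower from left to right.

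Among the 11 fibrillar genes, 4 rose, 2 fell and 5 did not pass the test. The shares were 36.4% higher and 18.2% lower, beside 20.7% and 23.3% of all genes. Col3a1, the homotrimeric fibrillar collagen of extensible tissues, read 9.07, 8.73 and 8.72 in WT_vehicle and 10.64, 10.88 and 10.46 in WT_DES. Every WT_DES array lay more than a log2 unit above every WT_vehicle array. The difference was 1.82 ± 0.11 (SE, adjusted p = 8.61e-08), or 3.52-fold. In aERKO the same gene read 8.51, 8.62 and 8.51 with vehicle and 8.71, 8.65 and 8.80 with DES. These groups also did not overlap, but the difference of 0.17 (95% interval -0.07 to 0.42) did not pass the test.

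Col1a1 and Col1a2 encode the chains of type I collagen, the main fibre protein of connective tissue. Col1a2 read 9.13, 8.88 and 8.95 in WT_vehicle and 10.38, 10.72 and 10.32 in WT_DES, a difference of 1.49 ± 0.11 (SE, adjusted p = 4.32e-07). Col1a1 read 9.42, 9.14 and 9.17 in WT_vehicle and 10.43, 10.80 and 10.52 in WT_DES, a difference of 1.34 ± 0.11 (adjusted p = 8.49e-07). Both chains were higher in each WT_DES array than in any other array of the series. In aERKO_DES the highest Col1a1 array read 9.42, the same as the highest WT_vehicle array, and the differences from aERKO_vehicle were 0.13 for Col1a1 and 0.16 for Col1a2, neither of which passed.

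Type V collagen is a minor component that sits inside type I fibrils and helps to start them. Its chain Col5a2 read 7.53, 7.40 and 7.40 in WT_vehicle and 8.16, 8.49 and 8.15 in WT_DES, a difference of 0.82 ± 0.09 (SE, adjusted p = 1.16e-05). Col5a1, the chain that pairs with it, read 7.79, 7.75 and 7.80 against 7.83, 7.91 and 7.95. Those arrays did not overlap, but the difference of 0.11 (95% interval -0.05 to 0.27) did not pass the test. It was 0.47 and called higher with the hybridization controls, where the median gene stood at 0.31, and 0.04 and not called with equal medians. Col5a3, the third chain of the type, lay between 7.74 and 7.79 in WT_vehicle and between 7.38 and 7.63 in WT_DES, a difference of -0.24 (adjusted p = 0.0682). The change of Col5a2 relative to Col5a1 within arrays was 0.71, and that of Col5a3 relative to Col5a1 was -0.35 (exact permutation p = 0.1 for each, the smallest possible, so neither passed). Both pairs were chosen after their values were seen.

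The other fibrillar genes are those of cartilage and of minor fibrils. Col11a2, a chain of cartilage type XI collagen, read 7.77, 7.78 and 7.79 in WT_vehicle and 7.43, 7.23 and 7.58 in WT_DES, a difference of -0.36 (adjusted p = 0.0169). Col27a1, also expressed in cartilage, read 7.90, 7.92 and 7.91 against 7.67, 7.51 and 7.75, a difference of -0.26 (adjusted p = 0.0414). Both calls were lost with the hybridization controls, at -0.01 and 0.09, and without WT_DES replicate 2. The call of Col27a1 was the less stable, since it was lost under 9 of 21 alternatives, 7 of which left out 1 array (highest adjusted p 0.156). Col2a1, the main cartilage collagen, differed by -0.19, Col24a1 by -0.20 and Col11a1 by -0.10, and none passed the test. Chondrocyte markers were called higher in 1 of 6 (16.7%), beside 20.7% of all genes. Their mean level was 7.35 to 7.41 in WT_vehicle and 7.14 to 7.41 in WT_DES.

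**Figure D3:**
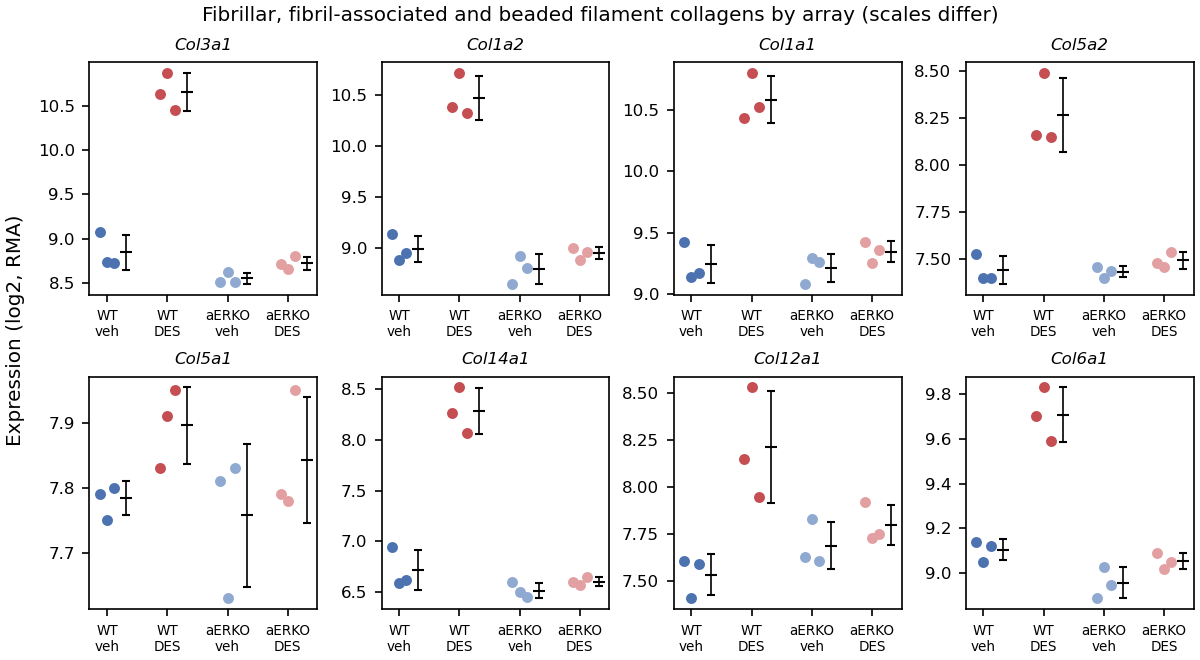
Expression (log2, RMA) on each array for 8 collagen genes of fibrils and beaded filaments, in the 4 groups, with the mean ± SD of 3 arrays beside the points. The axes differ between panels. WT_DES stands above the other 3 groups in every panel except that of Col5a1, where its arrays read 7.83 to 7.95 and overlap with aERKO_DES.

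Among the 9 FACIT genes, whose products decorate fibrils and have interrupted helices, 2 rose, 2 fell and 5 did not pass. These shares of 22.2% higher and 22.2% lower are near the 20.7% and 23.3% of all genes. Col14a1, which encodes a regulator of fibril diameter, read 6.94, 6.59 and 6.62 in WT_vehicle and 8.26, 8.52 and 8.07 in WT_DES. It rose by 1.57 ± 0.11 (SE, adjusted p = 3.93e-07), or 2.96-fold. Col12a1, its close relative in tendon and stressed tissue, read 7.61, 7.41 and 7.59 against 8.15, 8.53 and 7.95. The difference was 0.68 ± 0.13 (adjusted p = 0.00115), with the widest spread between WT_DES arrays of any collagen gene named here. In aERKO_DES, Col14a1 stayed between 6.57 and 6.65.

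The FACIT genes that fell were Col22a1, a collagen of tissue junctions, and Col9a2, a chain of cartilage type IX collagen. Col22a1 read 7.27, 7.28 and 7.26 in WT_vehicle and 6.92, 6.73 and 7.04 in WT_DES, a difference of -0.37 (adjusted p = 0.0151). Col9a2 read 7.84, 7.88 and 7.85 against 7.60, 7.31 and 7.66, a difference of -0.33 (adjusted p = 0.0323). With the hybridization controls these differences were -0.01 and 0.02 and were not called. Without WT_DES replicate 2 both calls were lost, and that of Col9a2 also without any 1 of the 3 WT_vehicle arrays (highest adjusted p 0.139, against 0.0676 for Col22a1). The other chains of type IX, Col9a1 and Col9a3, differed by -0.27 and -0.26 and narrowly missed the threshold, with adjusted p of 0.0699 and 0.065. Col16a1, Col19a1 and Col20a1 differed by -0.05, -0.22 and -0.17 and did not pass.

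The type IV collagens of basement membranes split by chain. Col4a1 and Col4a2, which form the ubiquitous network and share the start region printed above, both rose. Col4a1 read 8.37, 8.19 and 8.27 in WT_vehicle and 8.76, 9.03 and 8.84 in WT_DES, a difference of 0.60 ± 0.08 (SE, adjusted p = 9.29e-05). Col4a2 read 8.46, 8.35 and 8.40 against 8.71, 8.95 and 8.75, a difference of 0.40 ± 0.08 (adjusted p = 0.00112). Col4a1 changed by 0.20 relative to Col4a2 within arrays (exact permutation p = 0.1, the smallest that 3 arrays against 3 allow).

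Col4a6, a chain found in the basement membranes of some epithelia and of smooth muscle, went the other way. It read 8.46, 8.21 and 8.25 in WT_vehicle and 7.73, 7.44 and 7.36 in WT_DES, a difference of -0.80 ± 0.13 (SE, adjusted p = 0.000398). No WT_DES array reached the lowest WT_vehicle array. Col4a5, whose start lies head to head with that of Col4a6 and whose protein is the partner of its trimer, read 7.39, 7.27 and 7.36 against 7.57, 7.50 and 7.47. Those groups did not overlap, and the difference of 0.17 (95% interval 0.03 to 0.32) had an adjusted p of 0.051. With the hybridization controls Col4a5 was called higher at 0.53 and Col4a6 stayed lower at -0.44, whereas with equal medians Col4a5 differed by 0.10 (adjusted p = 0.203). Within each array, Col4a6 minus Col4a5 ran from 0.88 to 1.07 in WT_vehicle and from -0.11 to 0.16 in WT_DES, a change of -0.97 that no shift of whole arrays can alter (exact permutation p = 0.1). Only this change can be read, since the probe sets of different genes differ in brightness.

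In aERKO, Col4a6 read 7.91, 8.16 and 7.88 with vehicle and 7.62, 8.05 and 7.95 with DES. These groups overlapped, and the difference of -0.11 had a 95% interval of -0.39 to 0.17. Every aERKO array lay below every WT_vehicle array, with a difference of -0.32 given vehicle (limma, adjusted p = 1.0). Col4a3 and Col4a4, the chains of the kidney and lung network, lie next to each other in the genome and fell slightly in WT. Col4a3 read 7.22, 7.19 and 7.19 against 7.01, 6.95 and 7.07, a difference of -0.19 (adjusted p = 0.0479). Col4a4 read 7.52, 7.57 and 7.52 against 7.25, 7.11 and 7.33, a difference of -0.31 (adjusted p = 0.0113). With the hybridization controls both differences turned positive, at 0.17 and 0.05, and were not called. The call of Col4a3 was lost under 10 of 21 alternatives in all, 8 of which left out 1 array (highest adjusted p 0.141).

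**Figure D4:**
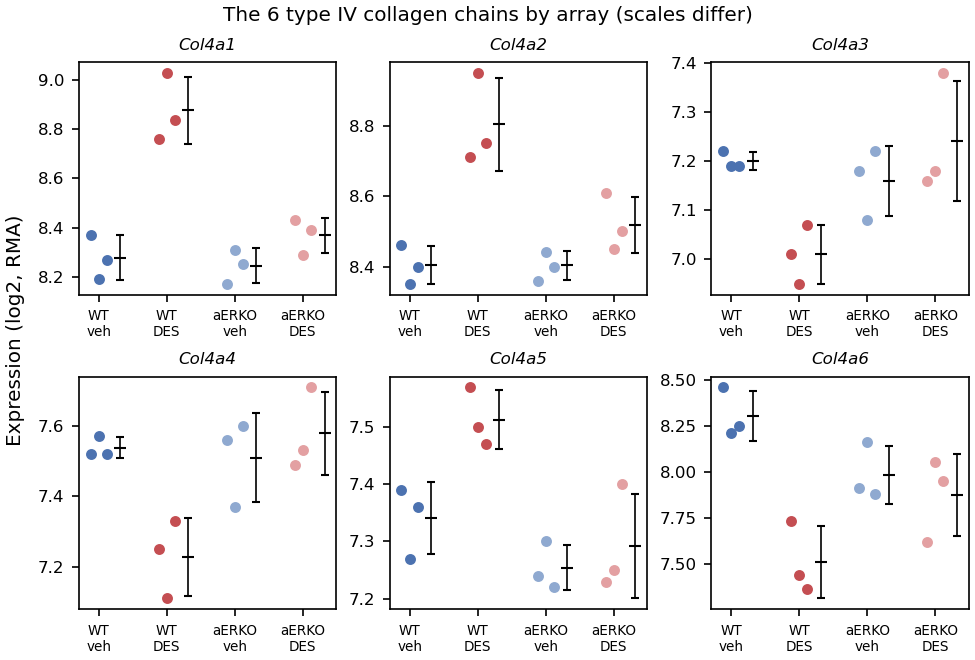
Expression (log2, RMA) on each array for the 6 type IV collagen chains in the 4 groups, with the mean ± SD of 3 arrays beside the points. The axes differ between panels. WT_DES lies above the other groups for Col4a1, Col4a2 and Col4a5 and below WT_vehicle for Col4a3, Col4a4 and Col4a6, with Col4a6 showing the widest gap (8.21 to 8.46 against 7.36 to 7.73).

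Among the 5 beaded filament genes, the chains of the classical type VI collagen rose together. Col6a1 read 9.14, 9.05 and 9.12 in WT_vehicle and 9.70, 9.83 and 9.59 in WT_DES, a difference of 0.60 ± 0.07 (SE, adjusted p = 3.08e-05). Col6a2, its genomic neighbour, read 8.74, 8.60 and 8.68 against 9.03, 9.22 and 9.06, a difference of 0.43 ± 0.07 (adjusted p = 0.00032). Col6a3, the large chain of the trimer, read 8.40, 8.35 and 8.33 against 8.73, 9.09 and 8.87, a difference of 0.54 ± 0.09 (adjusted p = 0.000425). The change of Col6a3 relative to Col6a1 within arrays was -0.06, the one chain pair of those compared whose groups overlapped. The alternative chains did not rise: Col6a6 read 7.07, 6.95 and 7.02 against 6.65, 6.48 and 6.85, a difference of -0.35 (adjusted p = 0.0109) that was 0.01 with the hybridization controls. Col6a5 differed by -0.11 and did not pass.

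Of the 4 transmembrane collagens, Col17a1 rose, Col13a1 and Col23a1 fell, and Col25a1 did not pass. Col17a1, the hemidesmosome collagen that anchors basal epithelial cells, read 7.59, 7.58 and 7.55 in WT_vehicle and 8.06, 8.24 and 8.15 in WT_DES, a difference of 0.57 ± 0.08 (SE, adjusted p = 0.000109). Basal epithelial markers such as Krt5 and Trp63 were called higher in 8 of 8, beside 20.7% of all genes. Their mean level was 8.17 to 8.19 in WT_vehicle and 8.98 to 9.21 in WT_DES. The part of these markers in the result was not tested. Col13a1, found at cell adhesions and neuromuscular junctions, read 7.72, 7.73 and 7.78 against 7.40, 7.17 and 7.46, a difference of -0.40 (adjusted p = 0.00421). Col23a1 read 8.20, 8.22 and 8.17 against 7.93, 7.75 and 7.92, a difference of -0.33 (adjusted p = 0.00438). With the hybridization controls Col13a1 and Col23a1 differed by -0.04 and 0.03. Col25a1, a collagen of neurons and muscle, differed by -0.21 (adjusted p = 0.0926).

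The multiplexins Col15a1 and Col18a1 both sit at basement membranes and carry endostatin-like ends. Col15a1 read 8.35, 8.31 and 8.23 in WT_vehicle and 8.78, 9.10 and 8.86 in WT_DES, a difference of 0.61 ± 0.08 (SE, adjusted p = 8.68e-05). Col18a1 read 8.25, 8.21 and 8.18 against 8.24, 8.17 and 8.26, overlapping groups with a difference of 0.01 (95% interval -0.13 to 0.14). The network-forming chains also parted. Col8a1, a vascular collagen, read 5.82, 5.65 and 5.96 against 6.13, 6.07 and 6.02, a difference of 0.26 (adjusted p = 0.042) at about the array median. It had passed the filter only through WT_DES, and its call was lost under 9 of 20 alternatives, that with no filter among them. Col8a2, its partner, read 7.72, 7.79 and 7.64 against 7.37, 7.18 and 7.54, a difference of -0.35 (adjusted p = 0.0185) that was 0.01 with the hybridization controls and also lost its call without WT_vehicle replicate 2 or WT_DES replicate 2. Col26a1 and Col28a1 differed by -0.19 and -0.11 and did not pass.

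Differences between chains within an array do not change when the whole array is shifted by a constant. A scaling that varies with brightness could change them, mainly for chains of unlike brightness such as Col8a2 and Col8a1, and this was not tested. For 14 pairs of chains, 7 of which were chosen after their values were seen, the change with DES in WT was tested by an exact two-sided permutation of 3 arrays against 3, which cannot go below p = 0.1. In 13 pairs the groups did not overlap (exact permutation p = 0.1, or 0.108 after Benjamini-Hochberg adjustment over the 14), so none passed this exact test. The 7 pairs chosen after their values were seen are all among these 13, so their lack of overlap is no independent support. These are Col3a1 with Col1a1 and Col1a2, Col5a2 and Col5a3 with Col5a1, Col14a1 with Col12a1, Col15a1 with Col18a1 and Col17a1 with Col13a1. No share over all pairs of genes was computed, and for single genes it was 60.9%. Col1a2 rose relative to Col1a1 by 0.15 and Col3a1 relative to Col1a1 by 0.48. Col14a1 changed by 0.89 relative to Col12a1, Col15a1 by 0.60 relative to Col18a1 and Col17a1 by 0.97 relative to Col13a1. In aERKO the largest change of any pair was 0.15 in size and the smallest exact permutation p was 0.4.

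The groups did not overlap in WT for 37 of the 41 genes (90.2%), 16 higher and 21 lower in WT_DES, where 25.8% of all genes were higher without overlap, 35.1% lower and 60.9% either. WT_DES replicate 2 stood at an edge of its group for most of the family. It was the highest WT_DES array for 13 of the 14 genes called higher and the lowest for 23 of the other 27 tested genes, shares of 92.9% and 85.2%, where it was the highest for 38.3% and the lowest for 36.0% of all genes. It also had the lowest background controls (4.70) and hybridization controls (11.19) of all arrays. Without it, 13 genes were called higher and 5 lower. Without WT_vehicle replicate 2, 7 were called lower. WT_vehicle replicate 1 was the highest of its group for 13 of the 14 genes called higher (92.9%, beside 29.3% of all genes). Its adipocyte markers had a mean level of 7.96, against 6.71 and 7.17 in the other WT_vehicle arrays. The part of these arrays' differences in the results was not tested. With each array left out in turn, Col3a1 differed by 1.71 to 1.93 and Col4a6 by -0.91 to -0.72.

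Markers of several cell types moved in WT_DES beside the collagens. For the counts that follow, 20.7% of all genes were called higher and 23.3% lower. Fibroblast markers were called higher in 9 of 11, with a mean level of 7.91 to 8.13 in WT_vehicle and 9.14 to 9.56 in WT_DES. Endothelial markers were higher in 8 of 9 and macrophage markers in 9 of 10, with 1 macrophage marker lower. Luminal epithelial markers were higher in 5 of 8 and lower in 2, with 0 lower under the hybridization controls. Markers of seminal vesicle secretion were lower in 5 of 9, and in 1 of 9 with the hybridization controls. Smooth muscle markers were lower in 8 of 10, with a mean level of 10.53 to 10.64 in WT_vehicle and 10.07 to 10.27 in WT_DES, and with the hybridization controls none of the 10 was called. The part of these markers in the collagen results was not tested. In aERKO none of these markers was called after DES.

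In aERKO mice no collagen gene was called after DES, higher or lower. Neither was any other gene (0.0% of all genes called), and at an unadjusted p below 0.05 there were 0 collagen genes and 263 of all genes (1.31%). The differences ran from -0.11 to 0.17 and were positive for 40 of the 41 genes, with a median of 0.08 beside -0.01 for all genes. The highest upper bound of any gene's 95% interval was 0.42, for Col3a1. aERKO_DES replicate 3 was the highest of its group for 26 of the 27 tested genes not called higher in WT (96.3%, beside 40.4% of all genes). aERKO_vehicle replicate 2 was the lowest of its group for 25 of these 27 (92.6%, beside 37.0% of all genes). Of the 14 genes called higher in WT, aERKO_vehicle replicate 2 was instead the highest for 11 and the lowest for 2. aERKO_DES replicate 3 was the highest for 6 of these 14. The part of these arrays in the sign of the differences was not tested. The groups did not overlap for 4 genes (9.76%), where 6.12% of all genes did not overlap.

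The response to DES differed between genotypes for 18 collagen genes by the interaction test, the response in aERKO minus that in WT. It was lower for 12, where 14.1% of all genes were lower, and higher for 6, where 9.16% were higher. All 12 were genes called higher in WT, led by Col3a1 (-1.65 ± 0.16, SE, adjusted p = 1.26e-05), Col14a1 (-1.48), Col1a2 (-1.33) and Col1a1 (-1.21). Col5a2 (-0.76), Col12a1 (-0.57), Col17a1 (-0.55), Col15a1 (-0.52), Col6a1 (-0.50), Col4a1 (-0.48), Col6a3 (-0.47) and Col6a2 (-0.34) followed. Since the interaction subtracts the response in WT, its match with the calls in WT is not independent of them. Of these 12, the call of Col12a1 was lost under 11 of 20 alternatives, 9 of which left out 1 array (highest adjusted p 0.0967), and that of Col6a2 under 5 of 20, 3 of which left out 1 array (0.065). The other 10 kept theirs under all 20, which do not include the condition of a 2-fold change. The 6 higher ones were Col4a6 (0.69 ± 0.18, adjusted p = 0.0183), Col22a1 (0.48), Col13a1 (0.47), Col6a6 (0.46), Col23a1 (0.40) and Col4a4 (0.38). With the hybridization controls 11 of the family were called lower and 0 higher, beside 14.0% and 0.661% of all genes, so the interaction of Col4a6, at 0.46, was lost there. With equal medians 14 were higher and 11 lower, beside 19.0% and 12% of all genes. The count of 6 also fell to 2 or 3 without WT_vehicle replicate 1, WT_vehicle replicate 3, WT_DES replicate 2, aERKO_vehicle replicate 2 or aERKO_DES replicate 3.

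Given vehicle, aERKO and WT glands had no collagen gene called different, where 0.0248% of all genes were called. Col3a1 differed by -0.30 (limma, adjusted p = 0.99). At an unadjusted p below 0.05 there were 2 collagen genes, Col3a1 and Col4a6, and 864 of all genes (4.29%). The groups did not overlap for 6 collagen genes (14.6%), beside 12.1% of all genes.

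Given DES, limma called 14 collagen genes lower in aERKO than in WT and 19 higher, where 24.6% and 27.5% of all genes were called. This comparison uses the same WT_DES arrays as the response in WT and is not independent of it. Of the 14 genes that rose in WT, 13 were among the 14 lower here, from Col4a2 (-0.29) to Col3a1 (-1.94 ± 0.11, adjusted p = 4.53e-08), and the remaining gene lower here was Col4a5 (-0.22). The call of Col4a5 was lost under 5 of 21 alternatives, equal medians among them (-0.14), and that of Col12a1 under 3, without WT_DES replicate 2, aERKO_DES replicate 2 or aERKO_DES replicate 3. That of Col4a2 was lost under 1, quantile normalization. The other 11 kept theirs under all of these alternatives, which do not include the condition of a 2-fold change. Among the 19 higher genes Col13a1 differed most, at 0.46 (adjusted p = 0.00155). With the hybridization controls 0 of the family were higher and 14 lower, beside 2.75% and 29.0% of all genes, and the 14 were the same genes. Without WT_DES replicate 1, WT_DES replicate 2 or aERKO_DES replicate 3 the 19 became 12, 7 and 8. Markers of other cell types differed in this comparison too. Fibroblast markers were lower in aERKO_DES in 9 of 11 (mean level 7.87 to 7.97, against 9.14 to 9.56 in WT_DES), macrophage markers in 9 of 10, endothelial markers in 7 of 9, basal epithelial markers in 8 of 8 and adipocyte markers in 4 of 6. Given vehicle, the adipocyte markers already differed by -1.40 to -0.24 between aERKO and WT. There limma's unadjusted p was below 0.05 for 6 of 6, beside 4.29% of all genes, and 0 were called. For the interaction 0 of the 6 were called. Smooth muscle markers were higher in 10 of 10 (mean level 10.64 to 10.98, against 10.07 to 10.27), and in 7 of 10 with the hybridization controls. Seminal vesicle secretion markers were higher in 6 of 9 and chondrocyte markers in 4 of 6, each in 1 with the hybridization controls. Luminal epithelial markers were lower in 5 of 8 and higher in 1. The part of these markers in the collagen differences was not tested.

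The enzymes and partners that make and hold collagen were counted from lists. Of 28 genes of collagen processing, 14 rose and 5 fell in WT, with a median of 0.18. The risers were led by the lysyl oxidases that cross-link collagen, Lox (1.91 ± 0.17, SE, adjusted p = 2.36e-06) and Loxl1 (1.58), by the lysyl hydroxylase Plod2 (1.08), by Bmp1, which cleaves procollagen ends (0.88), and by the collagen chaperone Serpinh1 (0.57). Among those that fell were P4hb, the disulfide isomerase subunit of prolyl hydroxylase (-0.43), and the procollagen export factor Mia3 (-0.39), and no gene of this list was called lower with the hybridization controls. Of 16 fibril partners, 14 rose and 1 fell, with a median of 1.18, among them the small leucine-rich proteoglycans Lum (3.47) and Dcn (1.96), the matricellular protein gene Thbs1 (2.59) and Aebp1 (1.54). Fmod, another proteoglycan of this kind, differed by -0.31 (adjusted p = 0.0204), but by 0.05 and with no call with the hybridization controls. Dcn, Lum and Dpt are also in the fibroblast marker list, Comp in the chondrocyte marker list and Sparc in the list of basement membrane partners.

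Of 16 basement membrane partners, 14 rose and 2 fell, with a median of 0.47. They included the laminin chain Lama4 (1.14 ± 0.12, SE, adjusted p = 7.87e-06), Nid1, which links laminin to type IV collagen (0.81), Pxdn, the peroxidase that cross-links type IV collagen (0.72), and the perlecan gene Hspg2 (0.56). The laminin chains Lamc3 (-0.33) and Lama1 (-0.30) fell, and neither was called with the hybridization controls. Of 10 receptors and uptake genes, 0 fell and 5 rose (median 0.58). Itga2, the collagen-binding integrin chain of epithelia and platelets, rose most (3.27 ± 0.16, adjusted p = 1.07e-08), then the inhibitory immune receptor Lair1 (1.80), the fibrillar collagen receptor Ddr2 (0.94), the uptake receptor Mrc2 (0.62) and Itgb1 (0.54). These medians stand beside -0.05 for all genes, and the counts beside 20.7% of all genes called higher and 23.3% lower. No gene of the 4 lists was called after DES in aERKO.

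**Figure D5:**
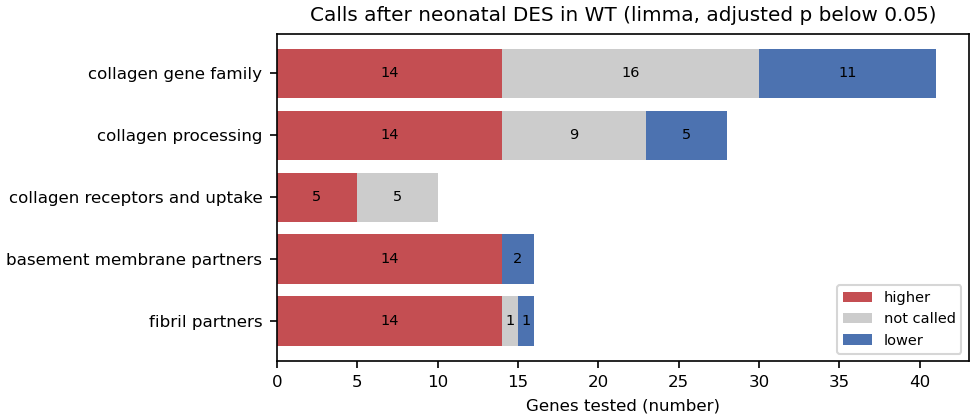
Number of genes called higher, not called and called lower by limma after neonatal DES in WT, for the collagen genes and for 4 lists of genes that process, bind or accompany collagens. The collagen genes divide into 14, 16 and 11, while 14 of 16 rose in both the basement membrane and fibril partner lists, which share Sparc. Of all genes, 20.7% were called higher and 23.3% lower.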

How the data were processed

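Total RNA from seminal vesicles, 300 ng per sample, was labelled for Affymetrix arrays, per the labels' protocols. The authors deposited 1 log2 value per probe set and array. The submitters' processing notes name RMA and Affymetrix Expression Console, and the sources used here give no version and no genome build. RMA equalizes arrays, so a broad rise in some genes can lower others. Of 72688 probe sets, 30604 had 1 gene symbol, 2146 several and 39938 none. The 2 probe sets that carry a collagen symbol with another symbol were not used. Symbols were updated for 827, and the brightest probe set stood for each gene.

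limma 3.58.1 in R 4.3.3 was fitted to 20130 genes on all 12 arrays with a mean per group, with two-sided tests and Benjamini-Hochberg adjustment within each of 5 comparisons (8 residual and 4.33 prior degrees of freedom). It was tested on simulated data first. The number of arrays limits the precision. SE and 95% intervals come from limma. Array values are given for the collagen genes called in WT after DES and for the partner chains Col4a5, Col5a1 and Col18a1, and partner lists name their largest called differences. The members and gene lists were chosen with earlier results of these data known. Alternatives changed the filter, the probe set rule, the moderation, the scaling, the samples fitted, a replicate block, the smallest fold counted (2), and the arrays included, leaving out 1 at a time. Promoter letters come from RefSeq, GRCm38.p6.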

Additional observations from a re-analysis of the deposited data

Results flagged for a closer look

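For 18 collagen genes the response to DES differed between genotypes by limma's interaction term, the response in aERKO minus that in WT. The differences were -1.65 for Col3a1, -1.48 for Col14a1, -1.33 for Col1a2, -1.21 for Col1a1, -0.76 for Col5a2 and -0.57 for Col12a1. They were -0.55 for Col17a1, -0.52 for Col15a1, -0.50 for Col6a1, -0.48 for Col4a1, -0.47 for Col6a3 and -0.34 for Col6a2. They were 0.69 for Col4a6, 0.48 for Col22a1, 0.47 for Col13a1, 0.46 for Col6a6, 0.40 for Col23a1 and 0.38 for Col4a4. Groups of 3 arrays are too small for a test of single arrays far from the rest.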

How the results depend on the processing

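In WT, 13 of the 14 genes called higher after DES (all but Col8a1) and 1 of the 11 called lower (Col4a6) kept their call under every alternative run, apart from the condition of a 2-fold change, which left 4 called, all 4 higher and 0 lower. The count of lower genes was 19 with quantile normalization, 19 with equal medians and 1 with the hybridization controls. With those controls 7 genes turned positive, Col23a1 (0.03), Col27a1 (0.09), Col4a3 (0.17), Col4a4 (0.05), Col6a6 (0.01), Col8a2 (0.01) and Col9a2 (0.02). Given DES, the hybridization controls left 14 calls, 0 of them higher, the fit of only the groups compared left 10 higher, and a 2-fold change left 4, all 4 lower and 0 higher. For the interaction, the hybridization controls left 11 calls and 0 higher, a 2-fold change left 4, all 4 lower and 0 higher, and the higher count was 15 with quantile normalization and 14 with equal medians. The cause was not tested.

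Leaving out each array in turn gave 18 to 31 calls in WT (13 to 15 higher, 5 to 16 lower), 20 to 34 given DES (7 to 20 higher, 12 to 14 lower) and 12 to 21 for the interaction (2 to 9 higher, 10 to 12 lower). No alternative gave a call in aERKO after DES or between genotypes given vehicle.

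The deviations of arrays with the same replicate number correlated at -0.355 to 0.52. Arrays with different numbers were not compared, so these values cannot decide whether the numbers pair the samples, and the labels state no pairing. With the replicate block, 17 genes were lower in WT and 12 were higher for the interaction.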
